A study of Drosophila melanogaster with 4 samples.

Results

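H3K79me2, the dimethylated form of lysine 79 of histone H3, was examined over 3 ecdysone early genes, broad (br), Eip74EF and Eip75B, in whole larvae of Drosophila melanogaster in the last larval stage, the third instar. The wild-type Oregon-R strain was used throughout, and there was no treatment or second genotype. The study held 4 samples, namely 2 chromatin immunoprecipitations (ChIP) with a rabbit polyclonal antibody and 2 input samples of genomic DNA, and values of the inputs were not analysed here. The genes were chosen by fixed windows on FlyBase release 5, X:1440000-1580000 for br, 3L:17540000-17640000 for Eip74EF and 3L:17900000-18100000 for Eip75B. Every enriched cluster with at least 1 base in a window was a member, which gave 37 of 6126 clusters of replicate 1, 24 of 4839 of replicate 2 and 23 of 5971 of the list for the whole series. These windows were proposed with cluster widths and scores of the same lists known, so their covered shares, widths, scores and ranks are described without a test. Separate collections of larvae for the 2 replicates are not named in the labels, and an SD over them measures only the spread between these samples. They give no sex, tissue or puff stage, and in such a bulk sample fewer cells with the mark and less of it per cell cannot be told apart.

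The steroid hormone ecdysone triggers moulting and metamorphosis through a heterodimer of the nuclear receptors EcR and Usp. A small set of early genes responds to it directly and was first seen as puffs on the polytene chromosomes of the salivary gland. The early genes code for transcription factors that go on to regulate many later genes. In flies H3K79 is methylated by grappa, the homologue of Dot1, and the mark is typical of the bodies of genes that are transcribed. br codes for a family of zinc finger proteins with a BTB domain that are needed for entry into metamorphosis. Eip74EF codes for ETS-domain factors and Eip75B for nuclear receptors that bind haem.

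All 3 windows were filled with H3K79me2 clusters over more than 60% of their length in both replicates. The br window, 140 kb long, was covered over 64.5% in replicate 1 and 64.7% in replicate 2, with a mean of 64.6% ± 0.154 (SD, n = 2). The Eip74EF window, 100 kb long, was covered over 60.4% and 66.4%, with a mean of 63.4% ± 4.20 (SD, n = 2). The Eip75B window, 200 kb long, was covered over 74.9% and 81.2%, with a mean of 78.1% ± 4.42 (SD, n = 2). Eip75B was the highest of these windows in each replicate. br and Eip74EF changed places between the replicates and are not ordered by these data. The arms themselves were covered over 26.0% and 24.7% on X and over 26.4% and 25.2% on 3L. The window of br therefore stood at 2.49 and 2.62 times its arm, that of Eip74EF at 2.29 and 2.63 times and that of Eip75B at 2.84 and 3.22 times. No cluster named depleted lay in any window in any list. The lists held only 14, 4 and 15 such clusters for replicate 1, replicate 2 and the whole series, so nothing is read from this. The lists hold no read counts, so the depth behind these clusters is unknown, and the share of a window depends on where its limits are set.

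**Figure D1:**
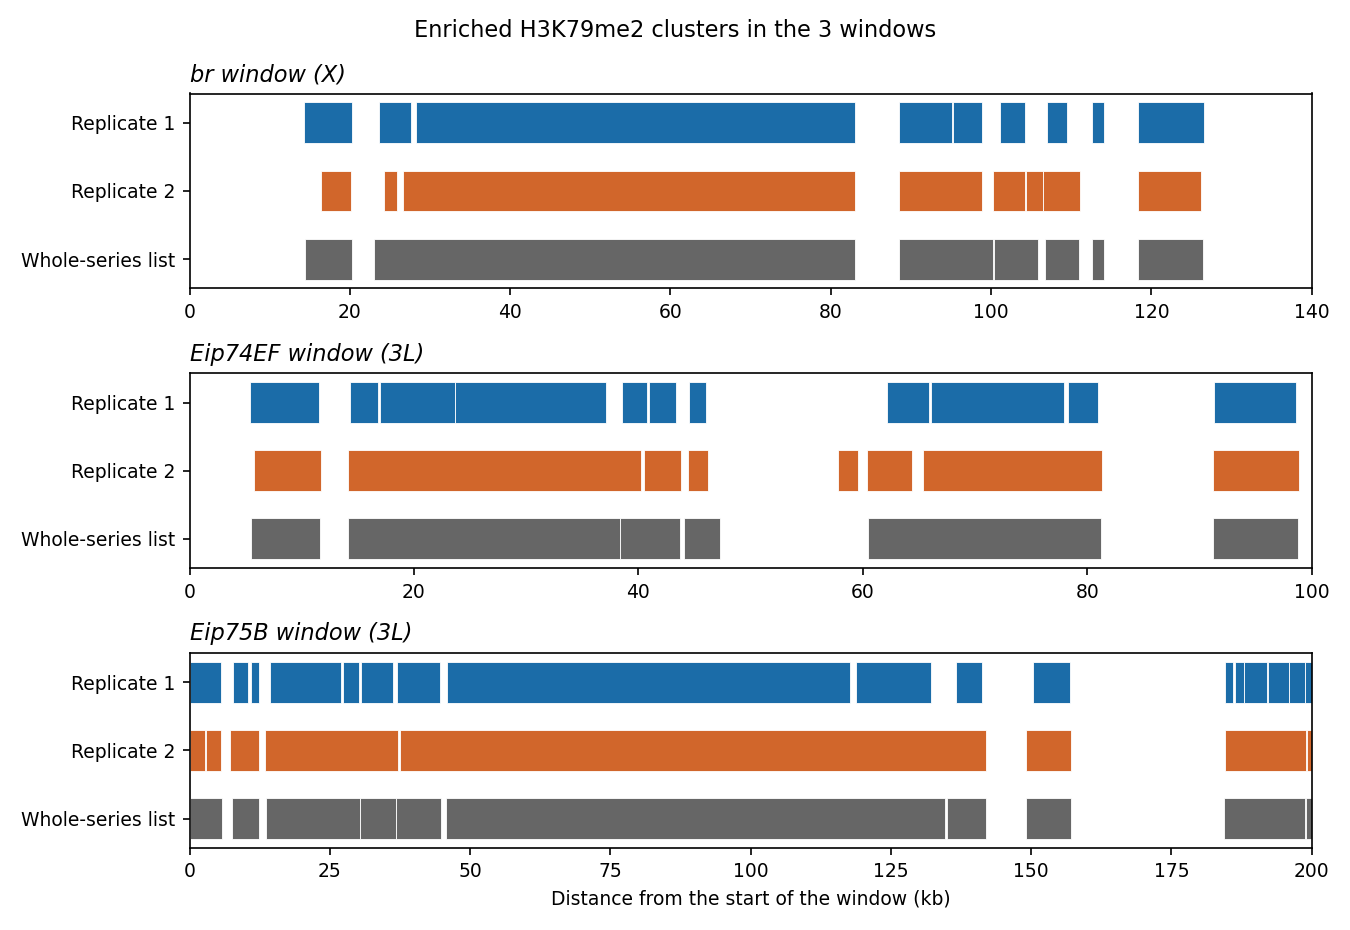
Enriched clusters in each window, drawn by distance from the window's start in kb for replicate 1, replicate 2 and the whole-series list. Bars are clusters, cut off at the limits of the window, and thin white lines separate neighbouring clusters. A long central block is seen at br and Eip75B in each list, while Eip74EF is broken up by stretches of 11.6 and 9.92 kb that are empty in both replicates. Such stretches also lie to the right of the long block, of 7.08 and 27.4 kb at Eip75B and 5.46 kb at br.

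The br window held a single long block with smaller clusters on either side. Replicate 1 had 9 clusters there and replicate 2 had 8, all of them wholly inside the window. The block ran from 1468253 to 1523066 in replicate 1, a width of 54.8 kb, and from 1466611 to 1523032 in replicate 2, a width of 56.4 kb. It made up 60.7% and 62.3% of the covered bases of the window. By width it ranked 6 of 6126 in replicate 1 and 7 of 4839 in replicate 2, and by score 17 and 40. Of 14 bins of 10 kb, the 5 that lay between 30 and 80 kb from the window's start were full in both replicates. The first and the last bin were empty in both, so the marked stretch ended inside the window on either side. Before the block came a cluster of 5.98 kb in replicate 1 and 3.75 kb in replicate 2. Then came a gap of 3.34 kb and 4.04 kb, and another cluster of 4.05 kb and 1.70 kb. Their scores were above 57.4% and 52.1% of the list for the outer cluster and above 39.3% and 11.2% for the inner one. To the right of the block both replicates had a gap, of 5.46 kb in replicate 1 and 5.54 kb in replicate 2. The next cluster began at 1528530 in replicate 1 and 1528569 in replicate 2. The last one, from 1558288 to 1566570 and from 1558371 to 1566142, was the second widest in replicate 1 and the third in replicate 2. Its score was above 86.1% and 68.1% of its list.

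The replicates disagreed most between the block of br and that last cluster. In the bin from 100 to 110 kb, replicate 1 was covered over 55.4% and replicate 2 over 95.5%, the largest difference of any bin in the window. A replicate 1 cluster from 1552581 to 1554063 had no base in replicate 2, and a replicate 2 cluster from 1544332 to 1546412 had none in replicate 1. Both were narrow, at 1483 and 2081 bp, with scores above 31.2% and 32.9% of their lists. In the RefSeq gene table (Release 6, used for gene order alone) inc and CG14795 lie before br, and dor, CG3740 and hfw follow it. Mur2B overlaps br in that table. Positions on the release of the cluster lists were not used to assign a cluster to any of these genes.

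Eip74EF carried the mark in pieces. Replicate 1 held 11 clusters and replicate 2 held 8, none crossing a limit of the window. The piece nearest the left limit was far narrower than the long blocks of br and Eip75B but had one of the highest scores of each list. It ran from 17545419 to 17551543 in replicate 1, 6.13 kb with a score rank of 3 in 6126, and from 17545743 to 17551676 in replicate 2, 5.93 kb with a score rank of 5 in 4839. By width the same piece ranked only 1620 of 6126 and 1606 of 4839, wider than 73.5% and 66.8% of the lists. A score of such rank was thus reached here without great width, unlike in the long blocks of br and Eip75B. After a gap of 2.79 kb in replicate 1 and 2.43 kb in replicate 2 came the widest cluster of replicate 2, from 17554110 to 17580223 and 26.1 kb wide. Replicate 1 had 4 clusters over that stretch, the widest of them from 17563683 to 17577131 and 13.4 kb wide. Both of these widest clusters scored high, above 96.9% of replicate 1 and 97.3% of replicate 2.

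The right part of the Eip74EF window was marked in both replicates but held no cluster that scored above 90% of its list. The left part held low scores too, and its last clusters in replicate 1 were above only 30.5%, 31.5% and 8.83% of the list. In replicate 2 its last clusters were above 43.5% and 11.7%. From 17586184 to 17597785, over 11.6 kb, neither replicate had a cluster. A replicate 2 cluster of 1737 bp from 17597786 to 17599522 followed, which had no base in replicate 1 and scored above only 7.38% of its list. The block beyond it held 3 clusters of replicate 1, up to 17620946, and 2 of replicate 2, up to 17621273. Its widest cluster measured 11.9 kb in replicate 1 and 15.9 kb in replicate 2, with scores above 65.6% and 75.0% of the list. The left part of the window therefore held all clusters that scored above 90% of their list, in both replicates. A further gap, of 10.3 kb in replicate 1 and 9.92 kb in replicate 2, came before the last cluster of the window. That cluster, 7.32 kb wide in replicate 1 and 7.66 kb in replicate 2, scored above 58.8% and 65.3% of its list. The next clusters outside lay only 1.25 kb to the right in replicate 1 and 2.26 kb in replicate 2. Nearest to Eip74EF in the gene table are CycT, a cyclin of the elongation factor P-TEFb, on the left and Vps60 and anchor on the right. Which of the outer pieces belong to these neighbours was not determined.

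The Eip75B window held the widest cluster of each replicate. In replicate 1 it ran from 17945940 to 18017757, 71.8 kb, and in replicate 2 from 17937449 to 18041908, 104 kb. Its score ranked 2 in replicate 1 and 1 in replicate 2. The replicate 1 cluster lay wholly inside that of replicate 2, and it filled 68.8% of it. Over the length of the replicate 2 cluster, replicate 1 had 4 clusters, which together covered 92.8% of its bases. The breaks of replicate 1 were therefore short stretches inside a block that both replicates marked almost throughout. In all, 10 of the 20 bins of 10 kb were covered over at least 90% in both replicates, and 7 of them were full in both.

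Both ends of the Eip75B window differed in character from its centre. On the left, up to the central block, no cluster scored above more than 57.2% of its list in replicate 1 or 76.3% in replicate 2. The widest of them was 12.6 kb in replicate 1 and 23.7 kb in replicate 2, with scores above 57.2% and 57.7% of the list. To the right of the block stood a much narrower cluster with a high score. It lay at 18050340 to 18057002 in replicate 1 and at 18048991 to 18057073 in replicate 2. It measured 6.66 and 8.08 kb, wider than 76.6% and 77.5% of its list, and scored above 95.2% and 99.3% of it. Beyond it neither replicate had a cluster from 18057074 to 18084517, the longest empty stretch of the 3 windows at 27.4 kb. The last stretch, from 18084518 to 18098925, was a single cluster of 14.4 kb in replicate 2, while replicate 1 had 5 clusters of 1351 to 4196 bp wholly inside it. Clusters crossed the limits of this window alone. The crossing cluster on the left had 60.0% of its length inside in replicate 1 and 27.5% in replicate 2, and that on the right 19.4% and 17.0%. In the gene table CG5290 and Wdr92 come before Eip75B and CG44006 follows it, and CG32192 and CG42393 overlap it.

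Set against all windows of the same length on the same arm, that of Eip75B stood at or near the top, br high and Eip74EF lower. The windows started every 1 kb, overlap each other and include those that overlap the gene's own, so the share is a rank and not a p-value. For Eip75B, 54 of 24344 windows on 3L were covered at least as much in replicate 1 (0.222%) and 12 in replicate 2 (0.0493%), with a mean share of 0.136% ± 0.122 (SD, n = 2). In replicate 2 all of these overlapped the Eip75B window. In replicate 1 there was 1 other stretch, and the highest window of the arm lay in it, from 3068001 to 3268001 with 77.8%. For br, 638 of 22283 windows on X were covered at least as much in replicate 1 (2.86%) and 513 in replicate 2 (2.30%), with a mean share of 2.58% ± 0.397 (SD, n = 2). Apart from those in the stretch around br itself, they fell into 8 and 6 separate stretches away from br. The highest 140 kb window of X began to the right of br, at 1718001 in replicate 1 with 88.5% and at 1719001 in replicate 2 with 86.7%. For Eip74EF, 2046 of 24444 windows were covered at least as much in replicate 1 (8.37%) and 1030 in replicate 2 (4.21%), with a mean share of 6.29% ± 2.94 (SD, n = 2). Apart from those in the stretch around Eip74EF itself, these lay in 25 and 18 separate stretches elsewhere on 3L. The most covered 100 kb window of 3L was inside the Eip75B window, at 17915001 to 18015001 with 97.3% in replicate 1 and at 17938001 to 18038001 with 100% in replicate 2. Eip74EF thus shared its level with many parts of the arm, whereas few or none outside its own neighbourhood reached that of Eip75B.

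**Figure D2:**
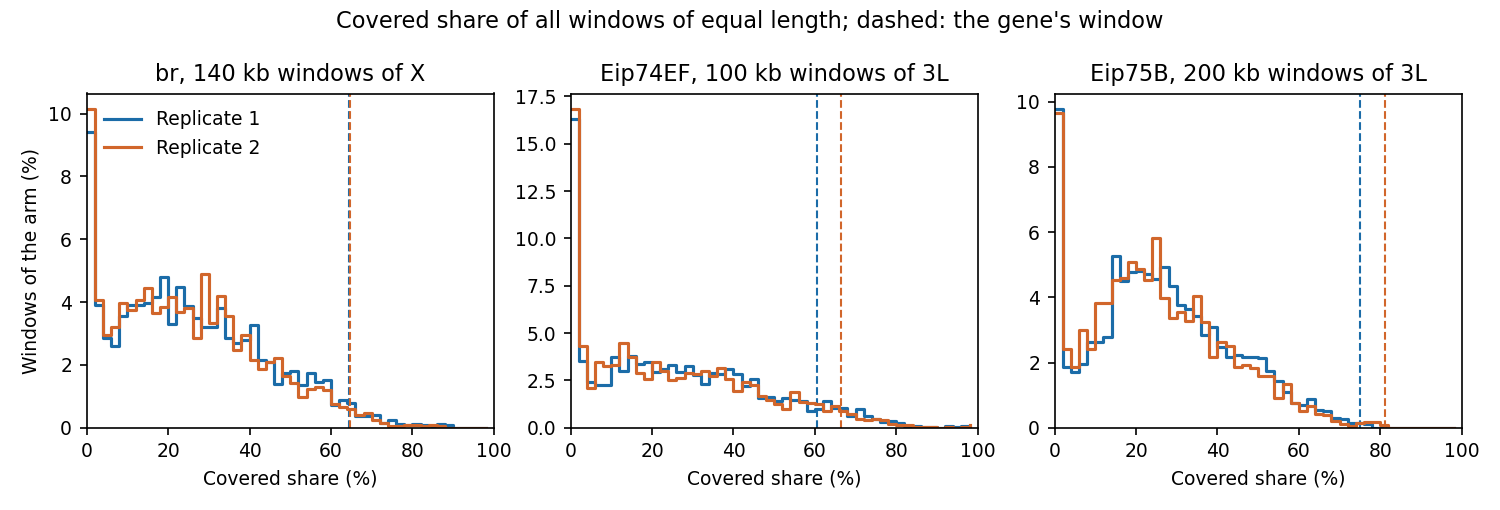
Distribution of the covered share (%) over all windows of the same length on the arm, in bins of 2 percentage points, as a percentage of windows, for both replicates. Dashed lines mark the window of the gene, which lies at 64.5% and 64.7% for br, 60.4% and 66.4% for Eip74EF and 74.9% and 81.2% for Eip75B, all above the level that 90% of the windows stay under.

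The windows of br and Eip75B were covered several times more than their surroundings, and that of Eip74EF was so on its right side only. Flanks of the same length as the window were compared with it. At br the left flank was covered over 19.9% in replicate 1 and 17.6% in replicate 2, and the right flank over 5.41% and 6.57%. At Eip75B the left flank was covered over 14.8% and 11.8% and the right flank over 8.15% and 11.3%. All of these shares were below those of the windows in each replicate. At Eip74EF the left flank was covered over 54.7% and 56.1%, near the 60.4% and 66.4% of the window, and the right flank over 18.8% and 16.7%. The 260 kb between the Eip74EF and Eip75B windows, where 48 protein-coding genes start between the pair in the gene table, were covered over 17.9% and 15.4%. The high shares of this pair on 3L therefore did not belong to 1 continuous marked region. Outside the window of br the nearest cluster was 29.5 kb away on the left in replicate 1 and 29.9 kb in replicate 2, and 7.89 and 7.99 kb away on the right. On the right of Eip75B it was 35.7 kb away in replicate 1 and 24.3 kb in replicate 2. On its left it was only 4.40 and 11.8 kb away, and clusters crossed both limits of that window.

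**Figure D3:**
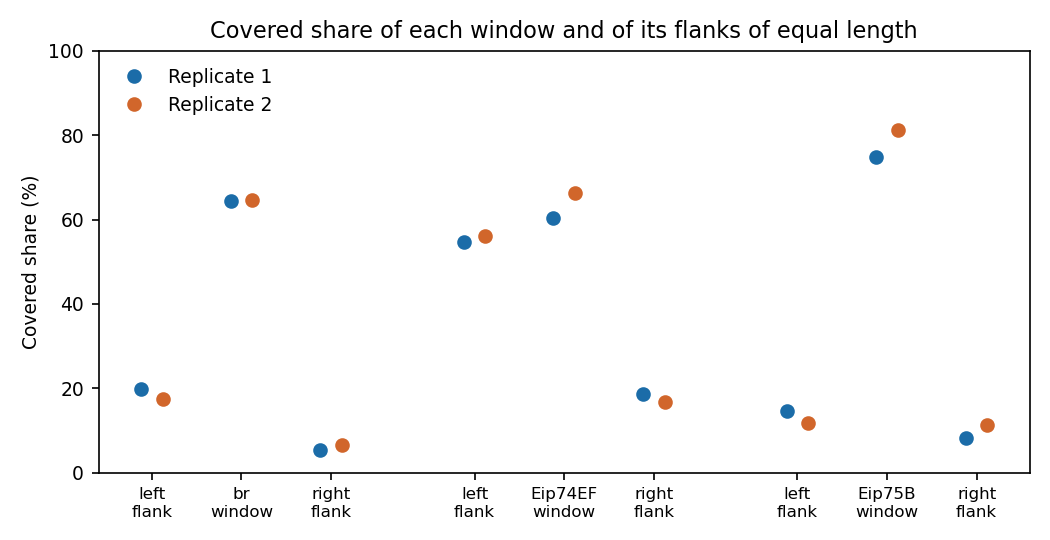
Covered share (%) of each window and of the flank of equal length on either side, with 1 point per replicate. Both points of each window lie above those of its flanks, and at Eip74EF the left flank, at 54.7% and 56.1%, comes closest.

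In bases the replicates agreed well inside the windows. They shared 84.7 of the 96.2 kb covered in either replicate at br, 58.9 of 68.0 kb at Eip74EF and 149 of 163 kb at Eip75B. The Jaccard index, the shared bases over those covered in either, was 0.881 at br, 0.866 at Eip74EF and 0.917 at Eip75B. The medians over equal-length windows with any covered base were 0.794 on X for br and 0.811 and 0.821 on 3L for the others. An index at least as high was found in 19.0% of these windows for br, 33.3% for Eip74EF and 7.60% for Eip75B. Most windows of the arms were covered far less than these 3, with median shares of 21.7% to 25.0% in the replicates. No comparison with windows of like coverage was made. The agreement of the replicates at br and Eip74EF was thus common on their arms. That at Eip75B was less common. The place of Eip75B above br and Eip74EF depended on the clusters used. With only clusters at or above the median score, its index was 0.741, below 0.866 at br and 0.850 at Eip74EF. Over all clusters, what differed was unevenly divided on 3L. At Eip75B replicate 1 alone covered 0.543 kb and replicate 2 alone 13.1 kb, and at Eip74EF it was 1.58 kb against 7.51 kb. At br the 2 amounts were close, at 5.60 and 5.90 kb. Replicate 2 was the higher in covered share on both windows of 3L, although its list was the lower over the whole of 3L and X.

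Nearly every cluster of the windows had a counterpart in the other replicate. Of the replicate 1 clusters, 36 of 37 had a base in replicate 2, where 84.0% did so over the whole list. Of the replicate 2 clusters, 22 of 24 had a base in replicate 1, against 94.8% of the list. In the whole-series list 22 of 23 had a base in both replicates, against 71.0%, the exception being the cluster at br from 1552542 to 1554108. Wide clusters meet a rule of 1 base more easily, and the windows were chosen with widths known, so nothing is read from these counts.

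The replicates divided the marked bases of the windows into different numbers of clusters. Over the 3 windows, 10 of 24 replicate 2 clusters overlapped 2 or more clusters of replicate 1, where 14.7% did so over the whole list. In the other direction 6 of 37 replicate 1 clusters overlapped 2 or more of replicate 2, against 6.50% of the list. At Eip75B replicate 1 held 17 clusters and replicate 2 only 8, with 5 of the 8 overlapping more than 1 cluster of replicate 1. At Eip74EF 3 of 8 did so and at br 2 of 8. Clusters of 10 kb or more numbered 6 of 37 in replicate 1, against 12.5% of its list, and 8 of 24 in replicate 2, against 16.9%. In the whole-series list they were 8 of 23, against 16.0%. As the widths were known when the windows were chosen, these shares only describe them.

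Edges of clusters were placed alike in the replicates at a few positions and far apart at others. Of the 72 replicate 1 edges inside the windows, 15 had an edge of the same side in replicate 2 within 200 bp, 20.8% where 39.3% of all replicate 1 edges did. Of the 46 replicate 2 edges, 15 had one in replicate 1 (32.6%), against 49.7%. By gene they were 6 of 18 replicate 1 edges at br, 4 of 22 at Eip74EF and 5 of 32 at Eip75B. As the windows were chosen with widths known and no test was made, these shares only describe the windows. The median distance to the nearest edge of the same side was 1665 bp for the replicate 1 edges of the windows and 365 bp for all of that list. For replicate 2 it was 467 bp against 203 bp.

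Close matches occurred beside gaps of different lengths. The closest pair of edges in the windows was 5 bp apart, at 17905669 in replicate 1, on the left part of Eip75B beside a shared gap of 1.56 kb. The gap of 27.4 kb at Eip75B began within 71 bp and ended within 44 bp of the same position in both replicates. The gap of 5.46 kb right of the br block began within 34 bp and ended within 39 bp. At Eip74EF the gap of 2.43 kb after the high-scoring first piece began within 133 bp and ended within 227 bp. Other gaps matched on one side or on neither. The gap of 4.22 kb before the last cluster of br began 2915 bp apart and ended within 83 bp. The gap of 11.6 kb at Eip74EF began within 138 bp but ended 4345 bp apart, where only replicate 2 had the low-scoring cluster at its right side. The gap of 7.08 kb at Eip75B began 739 bp and ended 1349 bp apart.

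The sides of the widest clusters differed by up to 24151 bp, and least on the right side of the br block. Counted as replicate 2 minus replicate 1, the left edge of the widest cluster was displaced by -1642 bp at br, -9573 bp at Eip74EF and -8491 bp at Eip75B. The right edge was displaced by -34 bp, 3092 bp and 24151 bp. In the 3177 pairs of clusters that overlapped each other and nothing else, the median distance was 148 bp on the left and 144 bp on the right, and the largest were 5028 and 5901 bp. None of the 3 widest clusters was such a pair, since that of replicate 2 overlapped 2 clusters of replicate 1 at br and 4 each at Eip74EF and Eip75B. Their displacement came with a different division of the block in the replicates, and its cause was not tested.

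**Figure D4:**
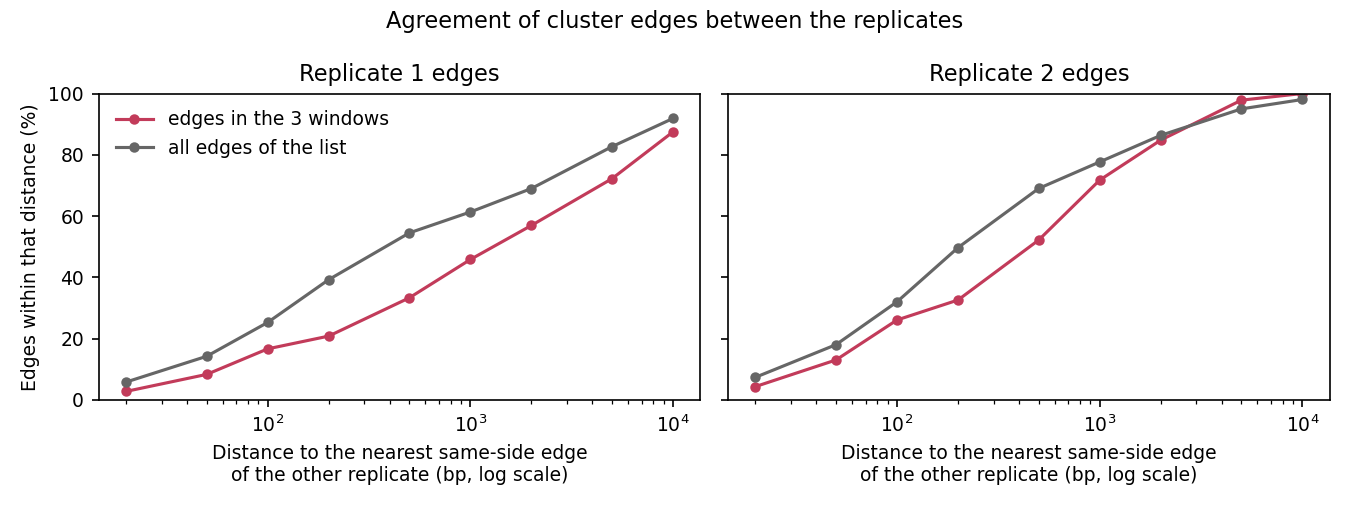
Share of cluster edges (%) that have an edge of the same side in the other replicate within the distance on the horizontal axis (bp, log scale), for edges in the 3 windows and for all edges of the list. At 200 bp the windows stand at 20.8% against 39.3% in replicate 1 and at 32.6% against 49.7% in replicate 2.

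Scores within the windows ran from near the bottom to the top of the lists. The authors' score has no stated scale, and only its order within a list was used. In replicate 1, 18 of the 37 clusters scored above the median of their list and in replicate 2, 15 of 24, where 50.0% of each list does so. In the whole-series list it was 18 of 23, against 50.0%. A score above at least 90% of the list was reached by 7 of 37 clusters in replicate 1, against 9.99%, by 5 of 24 in replicate 2, against 9.98%, and by 5 of 23 in the whole-series list, against 10.0%. Each gene had a cluster in this top class in both replicates. They were the long blocks of br and Eip75B, and the first piece and the wide left cluster of Eip74EF. The cluster of Eip75B before its large gap was also among them. In replicate 1 the class also held a second cluster of 6.64 kb in the left part of Eip74EF and the cluster crossing the right limit of the Eip75B window. The lowest score in each window stood above 31.2% of the list at br, 8.83% at Eip74EF and 13.1% at Eip75B in replicate 1. In replicate 2 the lowest were above 11.2%, 7.38% and 14.2%.

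**Figure D5:**
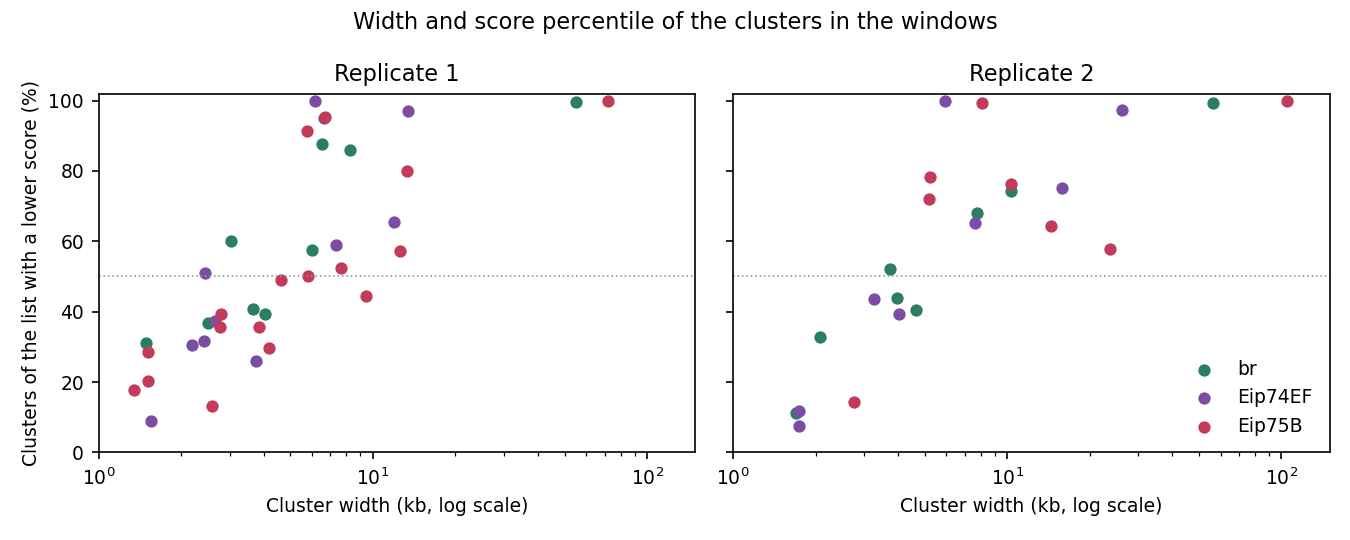
Width of each cluster in the windows (kb, log scale) against the share of its list with a lower score (%), for both replicates, coloured by gene. The dotted line marks the median of the list, and 18 of 37 and 15 of 24 clusters lie above it, with the first piece of Eip74EF near the top at 6.13 and 5.93 kb.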

How the data were processed

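Per the labels' protocols, larval chromatin was crosslinked with formaldehyde, sonicated and precipitated. Per the submitters' processing notes, the reads were aligned by Bowtie 0.12.7. In the deposited lists stand the first and last base of each cluster, on FlyBase release 5, per the file headers, and a signed score by the authors. None of the score's scale, the cluster caller, its threshold, the use of the inputs and the way replicates were combined is given in the sources used here. No list holds counts, so depth is unknown.

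The windows and all choices were made with earlier results of these data known. Named genes were those of the windows, with their clusters, flanks and the stretch between the windows of 3L. Other ecdysone genes were planned only for an annotation of release 5 and were not analysed here. Covered share was the union of enriched clusters over the window length. Windows for the ranks started every 1000 bp. No test was run, since there is 1 group of 2 samples. The alternatives are given below, and the edge tolerances were chosen after seeing the data. On simulated clusters, 6 of 6 checks of the interval steps were recovered. Python 3.11.15 was used with numpy 2.4.6 and matplotlib 3.10.9.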

Additional observations from a re-analysis of the deposited data

How the results depend on the processing

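Over all alternatives, 52 values were kept and 26 moved. A value with replicates was kept within 1 SD, a number of clusters within 1.5 times, the Jaccard index and edge share within a binomial 95% interval of bases or edges taken as independent, and an offset only if identical. No paired analysis was possible because the inputs, the only group with the same replicate numbers, have no analysed values. With only clusters at or above the median score of their list, covered shares were 56.0% at br, 51.7% at Eip74EF and 69.7% at Eip75B, Jaccard indices 0.866, 0.850 and 0.741, and the share of windows covered at least as much 0.573% for Eip75B. With clusters under 1 kb apart joined, the br window was covered over 65.2%, the Jaccard indices were 0.893, 0.880 and 0.935, the widest cluster of br measured 59.1 kb, and Eip74EF and Eip75B held means of 5 and 6.5 clusters in place of 9.5 and 12.5. After joining, the offset of replicate 2 minus replicate 1 at the left edge of the widest cluster was 627 bp at br, -227 bp at Eip74EF and -32518 bp at Eip75B, in place of -1642, -9573 and -8491 bp, and at the right edge of Eip74EF 9052 bp in place of 3092 bp. In the whole-series list br was covered over 69.5% and its widest cluster was 60.1 kb. Windows widened by 20 kb on each side were covered over 51.8% at br and 70.6% at Eip75B, lower by construction where the flanks are sparse. Over all major arms 3.16% of windows were covered at least as much as br, and laid end to end 0% as much as Eip75B. Without either replicate in turn, Eip75B held 8 to 17 clusters. With 2 replicates each always lies within an SD of the mean, so the other values without 1 replicate are no sign of stability. Those values are counted among the 52 kept. Edges matched within 100 bp in 16.7% of the windows' replicate 1 edges (25.3% of the list), within 500 bp in 33.3% (54.5%), and within 200 bp after joining in 30.0% (40.2%). Except where stated, the causes were not tested. Depth limits all values by an unknown amount.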
